A study of Mus musculus with 18 samples.

Results

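Collagens are the triple-helical proteins of the extracellular matrix. The collagen genes analysed here were all rows of the gene count table whose symbol is Col, a number, the letter a and a number, with a sum of at least 18 counts over the 18 libraries. There were 44 such genes among 21859 rows, and 0 rows of that form fell under the minimum. By type number, 11 encode chains of fibrillar collagens (types I, II, III, V, XI, XXIV and XXVII), 8 encode chains of basement membrane collagens (types IV, XV and XVIII) and 25 encode chains of other types. The choice used symbols and total depth and no difference between groups, though it was made with earlier results of these data known. 43 of the 44 had enough counts to be tested; Col28a1, with 33 counts in all, did not.

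The series is bulk RNA sequencing of mouse retinal pigment epithelium (RPE), the pigmented layer behind the photoreceptors, in 18 libraries. Young (7 libraries) is RPE of young mice and Old (4 libraries) is RPE of old mice, both without vector. Old control (3 libraries) is RPE of old mice given AAV2-tTA, an adeno-associated virus that carries a tetracycline-controlled transactivator. Old OSK (4 libraries) is RPE of old mice given AAV2-tTA;TRE-OSK, in which the transactivator drives Oct4 (Pou5f1), Sox2 and Klf4 from the TRE promoter, so that Old control and Old OSK share the tTA vector. Ages, vector doses, times after injection and the genotype or strain of the mice were not used here. The labels do not name a cell type that limits the vector, and they do not say whether each library is a separate animal, so the p-values measure the spread between these libraries, part of which may be technical.

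Each collagen chain winds with others of its type into a triple helix. Fibrillar collagens assemble into the cables of tendon, sclera and choroidal stroma; type IV forms a network within basement membranes; types VIII, IX, XVII and others form short networks, coat fibrils or span the cell membrane. The RPE rests on Bruch's membrane, whose innermost layer is the basement membrane of the RPE, and mutations in type IV and type VIII genes are known from basement membrane disease of kidney and eye and from corneal dystrophy.

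Library totals were between 18104828 and 32348136 counts. Pou5f1 lay between 50.2 and 97.4 CPM (counts scaled to a common library size) in Old OSK and at most 3.75 in the other libraries, Sox2 between 70.0 and 115 against at most 15.9, and Klf4 between 155 and 432 against at most 216, so Klf4 overlapped with Old. CPM values here use edgeR's TMM library sizes. Summed RPE markers (8 genes, among them Rpe65 and, with the highest Young means, Rgr and Ttr) reached 38653 to 64264 CPM in Young. They reached 26464 to 46544 in Old, 19801 to 61738 in Old control and 14812 to 29350 in Old OSK. On the first principal component of all genes, which held 46.5% of the variance, Old replicate 4 and Old control replicate 2 lay inside the range of the Old OSK libraries. 6 library names carry a letter M that the labels do not explain; these 6 libraries had 4040 to 5493 counts on Y-linked genes and the other 12 had at most 93. No Old library carries the letter.

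Promoter windows from RefSeq (GRCm38.p6, 250 bases before to 50 after the start) were found for 35 of the 44 genes. The windows below are those of Col11a2 and Col1a2, on which the OSK and the age comparison turn, and those of the type IV pairs whose starts lie within 1 window of each other. Col4a3 has no entry in the RefSeq table. In Col11a2 and Col1a2, capitals mark every match, on either strand, to the octamer ATGCAAAT, to the letters CATTGT, to the letters CCACCC, to the CCAAT box (CCAAT) and to the TATA box (TATAAA). In the type IV windows they mark the 78 bases that the Col4a1 and Col4a2 windows share on opposite strands, and the 73 bases from the Col4a4 start to the Col4a3 start in GENCODE. The Col11a2 window holds TATAAA 143 bases before the start and none of the other 4. The Col1a2 window holds CCACCC on the minus strand 201 bases before the start and CCAAT 109 bases before it and, on the minus strand, at it. Every line runs 5′ to 3′ along the gene's own strand.

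Col11a2, chr17:34038888-34039187, plus strand: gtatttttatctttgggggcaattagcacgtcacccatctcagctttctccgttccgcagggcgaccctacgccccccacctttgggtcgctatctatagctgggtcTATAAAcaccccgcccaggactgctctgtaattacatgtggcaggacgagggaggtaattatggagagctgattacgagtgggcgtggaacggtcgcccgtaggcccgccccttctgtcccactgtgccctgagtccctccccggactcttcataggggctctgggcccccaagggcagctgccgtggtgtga

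Col1a2, chr6:4505368-4505667, plus strand: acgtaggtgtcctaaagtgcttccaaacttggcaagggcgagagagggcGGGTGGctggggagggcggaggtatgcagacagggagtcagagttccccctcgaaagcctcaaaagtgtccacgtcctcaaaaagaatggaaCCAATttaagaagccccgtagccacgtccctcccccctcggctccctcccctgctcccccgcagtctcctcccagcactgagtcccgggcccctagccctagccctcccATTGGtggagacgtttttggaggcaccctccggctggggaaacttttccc

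Col4a1, chr8:11312777-11313076, minus strand: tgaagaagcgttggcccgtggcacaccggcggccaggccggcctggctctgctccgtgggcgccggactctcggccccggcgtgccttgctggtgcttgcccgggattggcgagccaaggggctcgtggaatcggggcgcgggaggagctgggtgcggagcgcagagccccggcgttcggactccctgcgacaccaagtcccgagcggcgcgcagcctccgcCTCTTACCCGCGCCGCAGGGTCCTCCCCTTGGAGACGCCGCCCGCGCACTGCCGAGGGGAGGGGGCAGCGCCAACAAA

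Col4a2, chr8:11312555-11312854, plus strand: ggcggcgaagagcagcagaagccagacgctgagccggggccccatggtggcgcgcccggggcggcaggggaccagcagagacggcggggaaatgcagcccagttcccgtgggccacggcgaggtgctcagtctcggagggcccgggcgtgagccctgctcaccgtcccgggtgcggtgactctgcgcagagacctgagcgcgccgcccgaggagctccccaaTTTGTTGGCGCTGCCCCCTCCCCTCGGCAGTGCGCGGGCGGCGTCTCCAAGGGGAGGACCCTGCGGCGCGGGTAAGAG

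Col4a4, chr1:82586800-82587099, minus strand: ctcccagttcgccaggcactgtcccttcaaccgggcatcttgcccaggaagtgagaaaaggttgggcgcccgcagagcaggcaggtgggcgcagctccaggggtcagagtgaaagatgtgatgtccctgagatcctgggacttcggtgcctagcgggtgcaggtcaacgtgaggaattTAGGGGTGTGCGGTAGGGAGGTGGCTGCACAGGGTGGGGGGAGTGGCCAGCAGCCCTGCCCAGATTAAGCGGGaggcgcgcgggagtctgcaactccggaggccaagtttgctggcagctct

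Over all 32851 RefSeq promoter windows, the octamer ATGCAAAT occurred in 1.74%, CATTGT in 12.6% and CCACCC in 31.5%. CCAAT occurred in 37.4% and TATAAA in 13.6%. Among the 38 collagen windows, 2 held ATGCAAAT, 1 held CATTGT and 22 held CCACCC; 13 held CCAAT and 5 held TATAAA. A match describes letters only. The GENCODE M21 gene starts of Col11a2 (34039437) and Col1a2 (4504814) differ from the RefSeq starts that these windows are built on, so each window belongs to 1 of the annotated starts.

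A few collagens of network-forming, fibril-associated and basement membrane types dominated in the RPE libraries. Levels of different genes were compared as CPM per kilobase of the gene's longest principal transcript in GENCODE M21. In Young, Col8a2 stood highest at 559.9 CPM per kilobase, followed by Col8a1 at 373, Col9a3 at 326 and Col18a1 at 159. Col8a1 and Col8a2 encode the chains of type VIII collagen, Col9a3 a chain of fibril-associated type IX, and Col18a1 the type XVIII chain whose end is released as endostatin. These 4 genes held the first 4 ranks in each of the 4 groups. The other type IX chains, Col9a1 and Col9a2, stood far below Col9a3 in Young, at 10.6 and 6.09 CPM per kilobase (ranks 10 and 12). The order of neighbours was mostly within the spread: Young libraries of 40 of the 43 neighbouring pairs overlapped, and the 3 that did not were Col9a3 over Col18a1, Col18a1 over Col4a3, and Col4a4 over Col1a2.

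**Figure D1:**
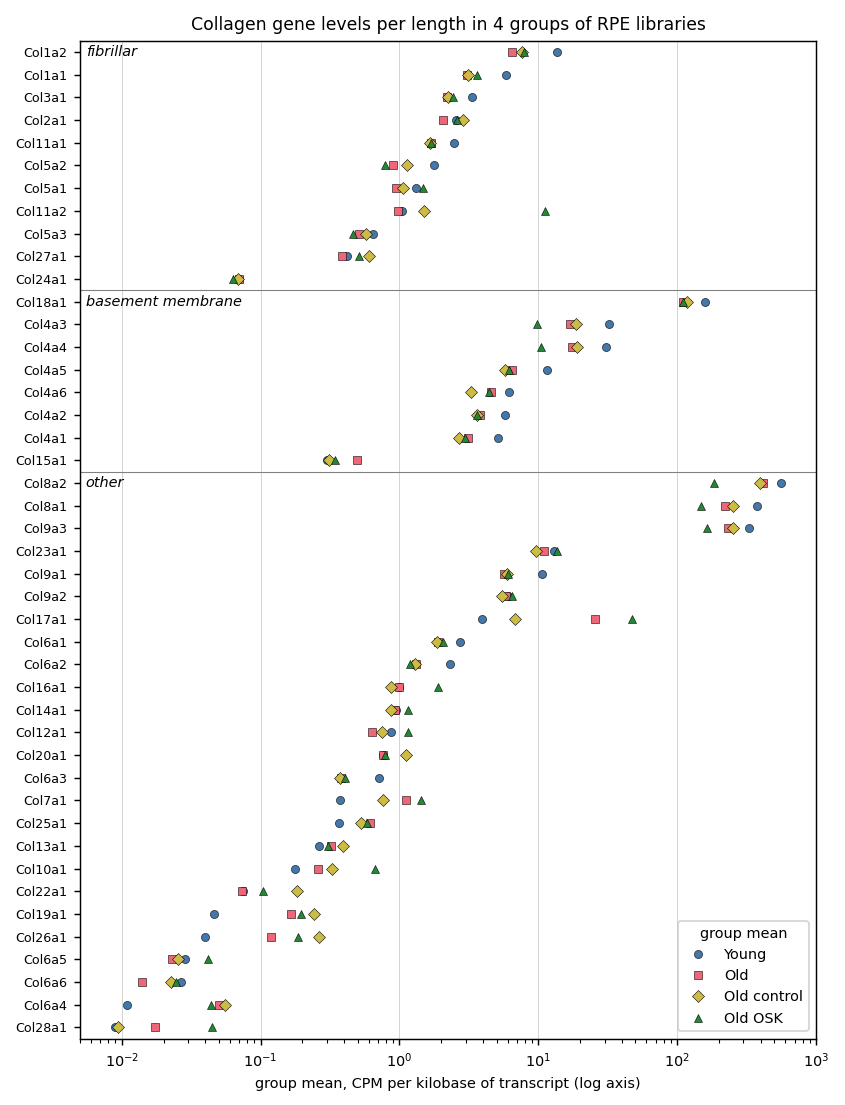
Group mean levels of the 44 collagen genes in CPM per kilobase of transcript (horizontal log axis), by class; each point is 1 group. Col8a2, Col8a1, Col9a3 and Col18a1 stand to the right in every group, and Col11a2 and Col17a1 move furthest to the right in Old OSK.

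Together the 44 genes took 0.688% ± 0.046 of all counts in Young (SD, n = 7), 0.510% ± 0.102 in Old (n = 4), 0.504% ± 0.168 in Old control (n = 3) and 0.376% ± 0.040 in Old OSK (n = 4). The Young libraries, at 0.631% or more, all lay above the Old libraries, at 0.615% or less. Of the Young share, 0.523% of counts came from the other types, 0.146% from basement membrane types and 0.0185% from fibrillar types. Col8a1, Col8a2 and Col9a3 alone made up 72.9% of collagen counts in Young and 58.3% in Old OSK.

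In Old against Young, 9 of the 43 tested collagens changed, 3 upward and 6 downward. Calls here are those of edgeR's quasi-likelihood test with p-values adjusted over all 15944 tested rows (Benjamini-Hochberg) and a threshold of 0.05. Of all tested rows 5.4% were called higher and 4.16% lower. 32 of the 43 fold changes were negative, with a median log2 fold change of -0.42, against -0.004 over all tested rows. By class, the medians were -0.48 for fibrillar, -0.66 for basement membrane and -0.06 for other types. The higher genes were Col17a1, Col7a1 and Col19a1, and the lower ones Col1a2, Col4a3, Col4a4, Col4a2, Col18a1 and Col6a2. DESeq2 called 4 higher and 10 lower. The shares of all rows above are those of the main fit. For the other fits in this paragraph, apart from the replicate block, they are not given, so their collagen counts stand alone. The letter M marks 3 of 7 Young and 0 of 4 Old libraries. With M as a covariate 0 were called higher and Col1a2 and Col4a2 lower, and in the libraries without M 0 higher and Col1a2 and Col4a5 lower. Without Old replicate 4 Col1a2 was the single collagen called. The fit blocked by replicate number leaves out Young replicates 5, 6 and 7 and called 0 collagens and 0 rows of the whole table. The same libraries without the block called Col1a2 and Col4a5 lower and 0 higher. Leaving out 1 library at a time, in 11 fits, Col1a2 was called in 11 and Col4a3 in 9. Col7a1 was called in 3, Col17a1 and Col4a4 in 2 each, and Col19a1, Col18a1, Col4a2 and Col6a2 in 1 each.

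Markers of other cell types moved in the same comparison. Of 6 immune markers 4 were called higher (Tyrobp, log2 fold change 2.89; Cd68, 1.65; Aif1, 1.55; Cd14, 1.51), while the list's sum, most of it Csf1r, was 419 to 638 CPM in Young and 311 to 526 in Old. Of 7 pericyte and smooth muscle markers Pdgfrb was called lower (-0.67, adjusted p = 0.00812), with sums of 318 to 400.1 CPM in Young and 289 to 342 in Old. Rod markers summed to 136 to 2642 CPM in Young and 1820.2 to 6631 in Old, with 0 of 6 called. RPE markers summed to 38653 to 64264 CPM in Young and 26464 to 46544 in Old, lowest in Old replicate 4, with 0 of 8 called. Endothelial markers summed to 55.2 to 210 CPM in Young and 74.0 to 265 in Old, with 0 of 7 called. Mueller glia markers summed to 11676 to 13714 in Young and 9759 to 11778 in Old, with 0 of 5 called. Melanocyte and Schwann cell markers summed to 408 to 509 and 341 to 410, with 0 of 5 tested genes called. No gene of these lists was at 0 in every library, and their part in the collagen values was not tested.

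**Figure D2:**
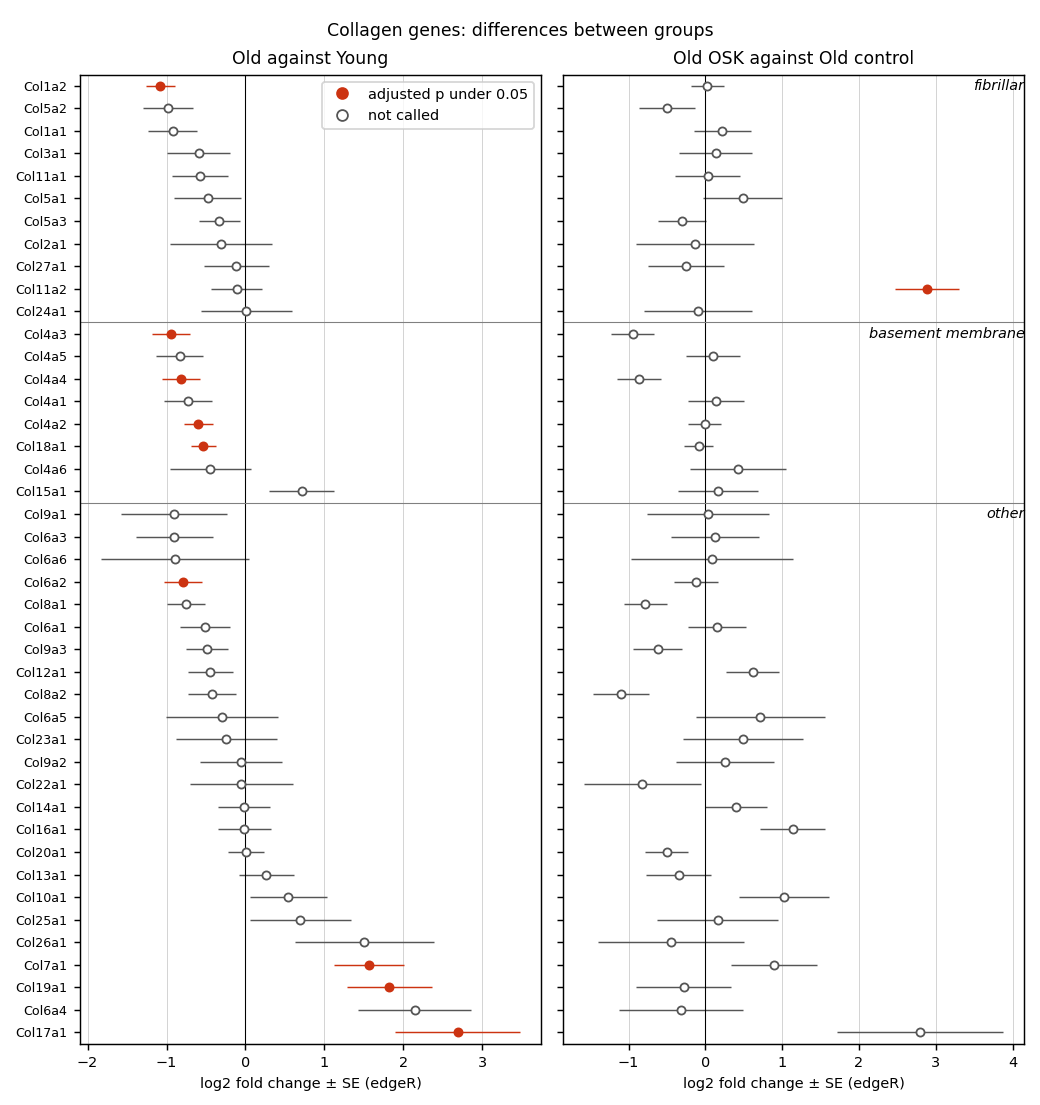
Log2 fold change ± SE from edgeR (horizontal axis) of the 43 tested collagens, Old against Young on the left and Old OSK against Old control on the right; filled red points have an adjusted p under 0.05. Left, most points sit below 0 and Col17a1 reaches 2.69; right, Col11a2 at 2.89 is the single filled point.

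The clearest fibrillar change with age was in Col1a2, the α2 chain of type I collagen, the main fibril of sclera and skin. Its level was 49.6 CPM at the lowest, 76.4 at the median and 89.7 at the highest of 7 Young libraries. In Old it was 34.6, 38.9, 39.9 and 24.2. All 4 Old libraries lay below all 7 Young libraries. The log2 fold change was -1.08 (SE 0.18, edgeR adjusted p = 0.00266), and Col1a2 remained lower in all 11 fits that left out 1 library, with adjusted p between 0.00194 and 0.0124. Blocked by replicate number it was -1.12 with an adjusted p of 0.178. That fit leaves out Young replicates 5, 6 and 7, and no row of the whole table was called in it. In the same libraries without the block Col1a2 was called lower. Old control, at 43.2, 45.9 and 34.2 CPM, and Old OSK, at 32.3, 41.3, 44.3 and 49.3, overlapped with each other (log2 fold change 0.03, adjusted p = 0.961).

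The partner chain Col1a1 was 19.7, 32.1 and 56.2 CPM (lowest, median, highest) in Young and 17.002, 20.8, 26.5 and 8.55 in Old. Young and Old overlapped, and the log2 fold change of -0.92 (SE 0.31, adjusted p = 0.0665) did not pass the test. Col5a2, a chain of the type V collagen that starts fibrils, was 9.09 CPM or more in Young and 8.41 or less in Old, with a log2 fold change of -0.98 and an adjusted p of 0.0578. Of the 11 fibrillar genes, 10 had a negative fold change and 1 passed the test. Stromal fibroblast markers (8 genes without collagens, among them Fbln1, Dcn and Lum) summed to 218 to 919 CPM in Young, 356 to 550 in Old, 286 to 498 in Old control and 439 to 707 in Old OSK. 0 of the 8 was called higher and 1 (Ogn) lower in Old against Young, and no gene of the list was at 0 in every library. The part of stromal cells in the fibrillar values was not tested. In bulk RNA, fewer cells of a type and less RNA per cell cannot be told apart.

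Type IV collagen is built from the 6 chains Col4a1 to Col4a6, of which the α3, α4 and α5 chains form the mature network of selected basement membranes. Col4a3 was 247, 277 and 326 CPM (lowest, median, highest) in Young and 136, 172, 181 and 90.2 in Old. The groups did not overlap, and the log2 fold change was -0.94 (SE 0.24, adjusted p = 0.0264). Col4a4 was 261, 319.6 and 360.0 in Young and 161, 202, 226 and 114 in Old, also without overlap, and its log2 fold change was -0.82 (SE 0.24, adjusted p = 0.0449). Col4a2 fell by 0.60 on the log2 scale (SE 0.18, adjusted p = 0.0466); its Young range from 23.3 to 55.1 overlapped with Old at 23.3, 24.9, 29.0 and 20.8. Col4a1, at 33.9 CPM in Young and 20.5 in Old, had a log2 fold change of -0.73 (adjusted p = 0.127), and Col4a5 one of -0.83 (adjusted p = 0.0787).

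Col18a1 was 663, 771 and 849 CPM (lowest, median, highest) in Young and 654, 484, 571 and 394 in Old. The groups lay close together without overlapping, and the log2 fold change was -0.53 (SE 0.16, adjusted p = 0.0447). Of 8 basement membrane collagens 7 had a negative fold change and 4 passed the test. Apart from Col4a3, these calls were lost when almost any 1 library was left out. The highest adjusted p came without Old replicate 4, at 0.116 for Col4a3, 0.193 for Col4a4, 0.191 for Col4a2 and 0.195 for Col18a1.

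**Figure D3:**
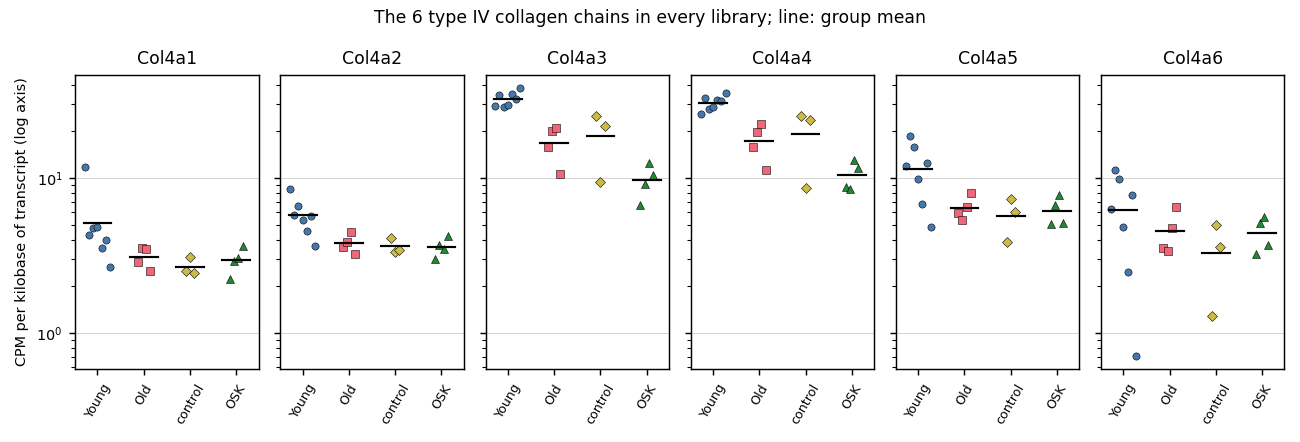
CPM per kilobase of transcript (vertical log axis) of the 6 type IV collagen genes in every library of the 4 groups; lines are group means. Col4a3 and Col4a4 have the highest mean of the 6 in every group, and their own lowest mean in Old OSK.

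The pairs share more than type. Col4a3 and Col4a4 start 72 bp apart on chromosome 1, Col4a1 and Col4a2 21 bp apart on chromosome 8 and Col4a5 and Col4a6 1309 bp apart on chromosome X, each pair on opposite strands. The per-kilobase ratio of Col4a3 to Col4a4 was 1.06 ± 0.04 in Young (n = 7), 0.972 ± 0.036 in Old (n = 4), 1.00 ± 0.08 in Old control (n = 3) and 0.928 ± 0.130 in Old OSK (n = 4). That of Col4a5 to Col4a6 was far wider in Young, from 1.604 to 6.77 with a median of 1.88. The highest came from Young replicate 7, where Col4a6 was at 4.72 CPM. The ratio of Col4a1 to Col4a2 ran from 0.699 to 1.39 in Young. Col4a3 shares 563 exonic bases with C430014B12Rik on the other strand, and Col9a3 234 with Tcfl5; the strand setting of the counting is not given in the sources used here, so reads there cannot be assigned.

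Collagens of epithelial attachment were higher in Old. Col17a1 encodes the membrane collagen of the hemidesmosome, which ties basal epithelial cells to their basement membrane, and Col7a1 the anchoring fibrils below it. Col17a1 was 2.36, 14.1 and 64.3 CPM (lowest, median, highest) in Young and 6.94, 108, 88.2 and 357 in Old. Old replicate 1 lay inside the Young range and the other 3 above it, and the log2 fold change was 2.69 (SE 0.79, adjusted p = 0.0436). Col17a1 lost its call in 9 of the 11 fits that left out 1 library, furthest without Old replicate 4 (1.64, adjusted p = 0.294).

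Col7a1 was 2.08, 2.50 and 6.78 CPM in Young and 1.96, 11.4, 12.04 and 15.8 in Old. The same Old replicate 1 was low, and the log2 fold change was 1.56 (SE 0.44, adjusted p = 0.0378; 0.180 without Old replicate 4). Col19a1, a fibril-associated type XIX chain, was low in all groups. It was 0.204 CPM at the median of Young and 1.01, 0.470, 0.504 and 0.867 in Old, without overlap, with a log2 fold change of 1.83 (SE 0.54, adjusted p = 0.0434; 0.160 without Old replicate 4). At these levels each value rests on few counts.

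**Figure D4:**
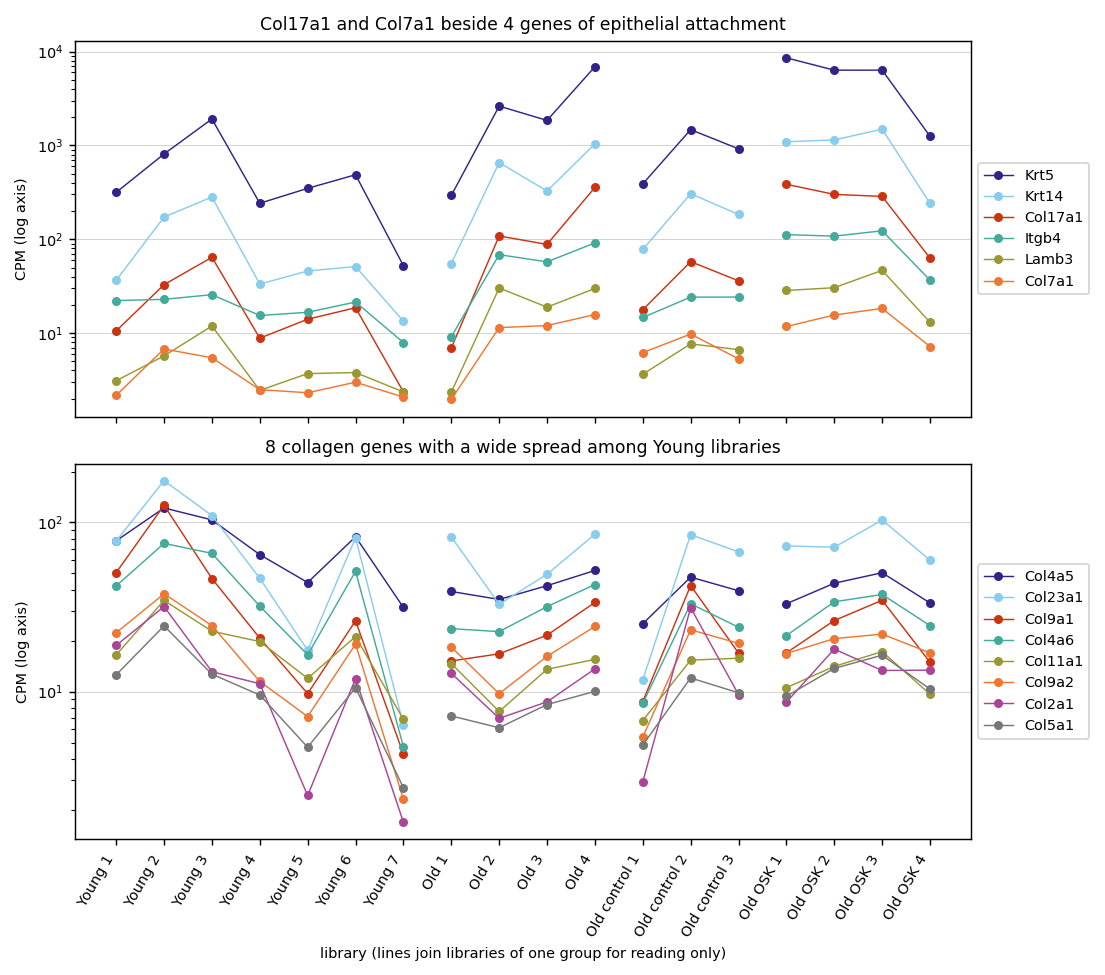
CPM (vertical log axes) in every library. Top, Col17a1 and Col7a1 with Krt5, Krt14, Itgb4 and Lamb3; bottom, 8 collagens with a wide spread among Young libraries. In the top panel Young 7 and Old 1 are low and Old 4 and 3 of the Old OSK libraries high; in the bottom panel Young 7 is the lowest and Young 2 the highest Young library.

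A list of 14 hemidesmosome and surface epithelium genes was chosen after the collagen values had been seen. Krt5, the keratin of basal epithelial cells, was 52.3 to 1913 CPM in Young and 293, 2623, 1847 and 6897 in Old. It was 389, 1473 and 920.4 in Old control and 8581, 6336, 6342 and 1252 in Old OSK. The 4 libraries with the highest Krt5 were also the 4 with the highest Col17a1. Itgb4 (log2 fold change 1.58), Krt14 (2.52) and Krt17 (2.74), 3 of the 14, were called higher in Old against Young and 0 lower. The median was 1.27. Of all tested rows 5.4% were called higher and 4.16% lower in that comparison. The part of other epithelial cells in the Col17a1 and Col7a1 values was not tested.

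Col6a2, a chain of the microfibrillar type VI collagen, was 6.75, 8.94 and 11.2 CPM (lowest, median, highest) in Young and 5.70, 5.54, 6.18 and 3.53 in Old. The groups did not overlap, and the log2 fold change was -0.79 (SE 0.24, adjusted p = 0.0466; 0.202 without Old replicate 4). Col8a1 was 1591, 1841 and 2298 CPM in Young and 1171, 1320.3, 1335 and 703 in Old. It did not overlap either, but at a log2 fold change of -0.75 it did not pass the test (adjusted p = 0.0541). Col8a2 overlapped (-0.42, adjusted p = 0.387), and so did Col9a3 (-0.49, adjusted p = 0.244).

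In Old OSK against Old control, 1 collagen changed: Col11a2 rose. The gene encodes the α2 chain of type XI collagen, which is known from cartilage fibrils and the inner ear. Of all tested rows 0.408% were called higher and 0.32% lower. 24 of 43 collagens had a positive fold change, and the median was 0.03, against -0.03 over all rows. The fit blocked by replicate number called 2 higher (Col11a2 and Col17a1) and 0 lower, as did the same libraries without the block. DESeq2 called 3 higher (Col11a2, Col16a1 and Col17a1) and 3 lower (Col4a3, Col4a4 and Col8a2). The shares of all rows above are those of the main fit and are not given for these other fits. The letter M marks Old control replicates 2 and 3 and Old OSK replicate 4, so it is unevenly spread here too. With M as a covariate Col11a2 remained the single collagen called.

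Col11a2 was 3.42, 4.80 and 8.83 CPM (lowest, median, highest) in Young and 2.92, 5.70, 8.51 and 3.80 in Old. In Old control it was 8.48, 7.64 and 8.29. In Old OSK it was 34.4, 75.7, 87.7 and 42.9. Every Old OSK library lay above every library of the other groups, and the log2 fold change was 2.89 (SE 0.42, edgeR adjusted p = 0.00426). Col11a2 stayed called in the 7 fits that left out 1 library, at 2.61 to 3.04 with adjusted p between 0.00367 and 0.0467. Fitted on the 2 groups alone it was 2.88 with an adjusted p of 0.105. Its rank per length rose from 24 of 44 in Young to 7 in Old OSK, where its level was 11.2 CPM per kilobase. Beside it, Comp of the 5-gene cartilage list was called higher (log2 fold change 2.05, adjusted p = 0.0248). A list of 7 type XI neighbours and cartilage regulators was added after the collagen values had been seen. Of these 7 genes 0 were called and 1 had a positive fold change, with a median of -0.22. Among them Sox9 was at -0.40 (adjusted p = 0.316) and the neighbouring gene Rxrb at -0.13 (adjusted p = 0.325). The cartilage list summed to 6.74 to 10.4 CPM in Old control and 11.8 to 14.5 in Old OSK. Within it, the mean of Comp was 1.85 CPM in Old control and 7.67 in Old OSK, and that of Cnmd 4.70 and 3.63. Acan (log2 fold change 0.86, adjusted p = 0.730), Chad (0.23, adjusted p = 0.83) and Cnmd (-0.37, adjusted p = 0.729) were not called, and Matn1 was not tested. The part of the list in the Col11a2 values was not tested.

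**Figure D5:**
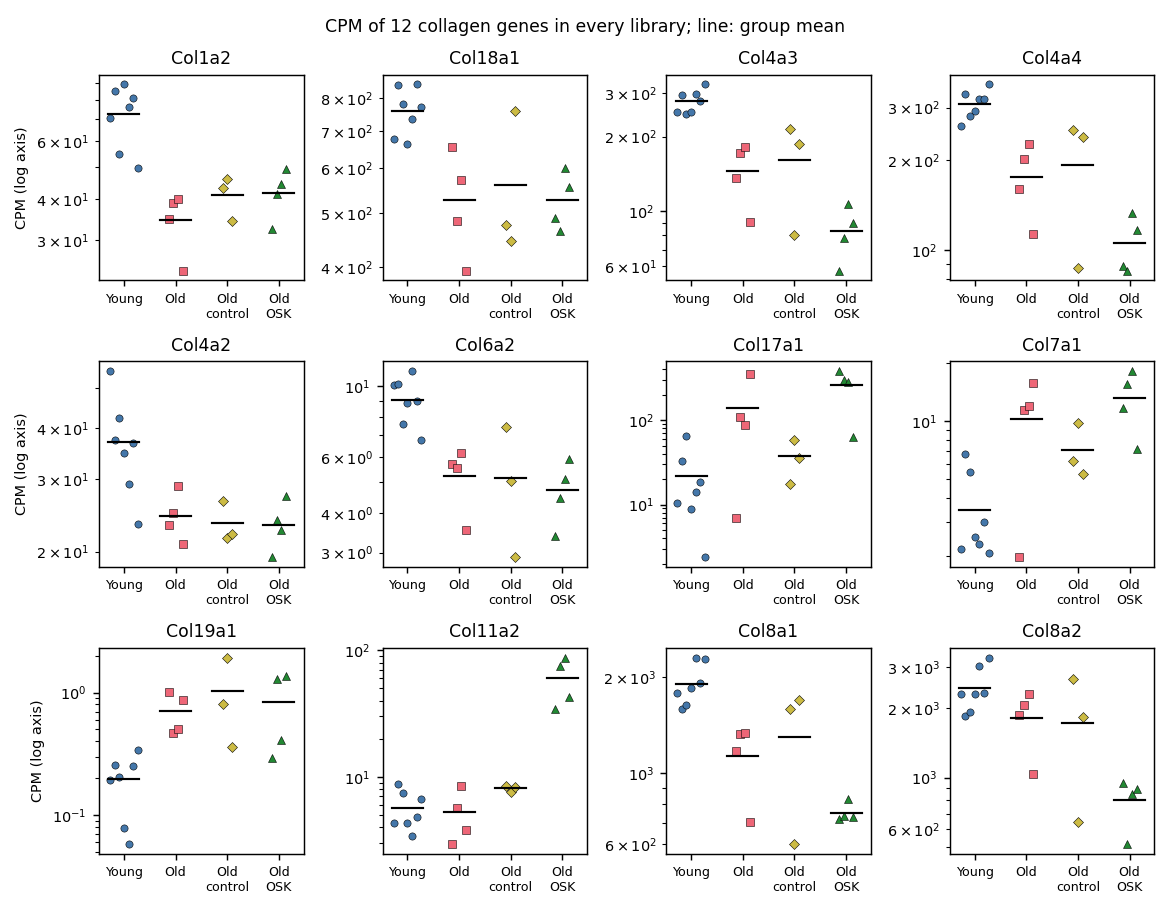
CPM (vertical log axes, 1 scale per gene) of 12 collagen genes in every library of the 4 groups; lines are group means. Col11a2 lies above all other libraries in Old OSK; Col1a2 is high in Young alone; Old control replicate 2 lies within the Old OSK range for Col4a3, Col4a4 and Col8a2 and below it for Col8a1.

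Col17a1 was 17.7, 57.7 and 36.1 CPM in Old control and 385, 301, 286 and 63.0 in Old OSK. The groups did not overlap, yet the log2 fold change of 2.80 (SE 1.08, adjusted p = 0.127) did not pass the test. The fit blocked by replicate number uses the 3 numbers that Old OSK and Old control share and leaves out Old OSK replicate 4, at 63.0 CPM. In it the log2 fold change was 3.25 for Col17a1 (adjusted p = 0.0468) and 2.92 for Col11a2 (adjusted p = 0.0445). Without the block, the same libraries also called both genes higher. Of the hemidesmosome list 0 of 14 passed (Itgb4 2.17, adjusted p = 0.0708; Krt5 2.60, adjusted p = 0.143), and its median was 1.89.

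The type IV and type VIII chains that are high in RPE had lower means in Old OSK, without passing the test. Col4a3 was 215, 80.2 and 186 CPM in Old control and 57.7, 78.4, 107 and 90.1 in Old OSK, with a log2 fold change of -0.95 (SE 0.28, adjusted p = 0.0823). Col8a2 was 2664, 644 and 1830 CPM in Old control and 944, 515, 846 and 894 in Old OSK, at -1.10 (SE 0.37, adjusted p = 0.0968). In both genes Old control replicate 2 lay within the Old OSK range and the other 2 control libraries above it. Without that library, Col4a3 (-1.30), Col4a4 (-1.24), Col8a1 (-1.15), Col8a2 (-1.51) and Col9a3 (-1.03) were called lower, with adjusted p between 0.0048 and 0.0120. Without Old control replicate 1 they were not called. The adjusted p was then 0.369 for Col4a3, 0.396 for Col4a4, 0.403 for Col8a1, 0.448 for Col8a2 and 0.662 for Col9a3. The summed RPE markers were 61738, 19801 and 52803 CPM in Old control replicates 1, 2 and 3 and at most 29350 in Old OSK. Their part in these values was not tested.

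In Old control against Old, 0 of 43 collagens and 0 of 15944 rows were called by edgeR, and DESeq2 called 0 collagens; 0% of rows passed in either direction. At an unadjusted p under 0.05 there were 0 collagens, against 383 rows higher and 213 lower. The collagen of lowest p in each class was Col20a1 (log2 fold change 0.56), Col15a1 (-0.67) and Col11a2 (0.63). Old against Young and Old control against Old share the Old libraries, and Old control enters the OSK comparison, so the 3 comparisons are not independent.

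The genes that make, process and bind collagen were counted in lists chosen with earlier results known. Over all tested rows, 4.16% were called lower and 5.4% higher with age, and 0.32% lower and 0.408% higher with OSK. Of 24 maturation enzymes and chaperones, 3 fell in Old against Young: Serpinh1, the collagen chaperone HSP47 (log2 fold change -0.46, adjusted p = 0.0376), and the coat proteins Sec23a (-0.43) and Sec24d (-0.38) of vesicles that leave the endoplasmic reticulum. 0 of 24 changed in Old OSK against Old control. Of 12 tested genes of propeptide removal and cross-linking, 4 fell with age. Bmp1, which cuts the C-propeptide of fibrillar procollagens, was 29.0 to 33.1 CPM in Young and 20.6, 19.96, 20.4 and 18.4 in Old (log2 fold change -0.67, adjusted p = 0.000547). The others were Loxl2 (-0.78), Adamts2 (-1.12) and Pxdn (-0.64), the peroxidase that links type IV collagen.

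Pcolce2, an enhancer of propeptide removal, was the 1 gene of that list called higher in Old OSK. It was 37.4, 23.6 and 48.0 CPM in Old control and 122, 206, 215 and 149 in Old OSK. The groups were far apart, with a log2 fold change of 2.25 (SE 0.24, adjusted p = 0.00092). Of 12 tested breakdown genes, Ctsk, the collagen-cutting cathepsin K, fell with age (-0.53, adjusted p = 0.0448) and rose in Old OSK (1.06, SE 0.19, adjusted p = 0.0150). Timp3, an inhibitor of metalloproteinases that is deposited in Bruch's membrane, was at -1.44 in Old OSK without passing the test (adjusted p = 0.0588). Of 8 tested receptors Lair1, a receptor of leukocytes, rose with age (0.89, adjusted p = 0.0260), as did the 4 immune markers named above, and 0 changed with OSK.

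Of 18 basement membrane partners, 4 fell and 2 rose in Old against Young. Sparc, which binds collagen outside the cell, was 763 CPM or more in Young and 503, 472, 463 and 325 in Old (log2 fold change -1.07, adjusted p = 0.000322). Nid2 (-0.68), Lamc1 (-0.56) and Lamb1 (-0.54) fell as well. Lamb3, a laminin chain of epithelial basement membranes, rose (2.10, adjusted p = 0.0260). In Old OSK against Old control 0 of 18 passed the test, with a median log2 fold change of 0.53. Of 10 fibril-associated proteoglycans, Ogn fell with age (-0.57) and 0 changed with OSK.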

How the data were processed

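Full-length cDNA was amplified from TRIzol-extracted RNA with a SMART-Seq kit and cut by transposase (Nextera XT), per the labels. The deposited table holds unnormalized gene counts, 1 column for each of the 18 libraries; 0 columns were left unused. STAR 2.7.1a and featureCounts 1.6.2 are named in the submitters' processing notes, with the builds GRCm38/mm10 and GRCh38/hg38. The annotation and strand setting are not given in the sources used here. Gene names are those of the table.

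Low rows were removed in edgeR 4.0.16 by filterByExpr, set to a minimum count of 10 and a minimum total of 15. The remaining 15944 rows were scaled by TMM and fitted with glmQLFit and glmQLFTest (R 4.3.3) on all 18 libraries with 4 group means. P-values were adjusted by Benjamini-Hochberg over all tested rows, and the script was tested on simulated data. Alternatives used DESeq2 1.42.0, other scaling and filters, the letter M as a covariate, the 2 groups alone, replicate blocks and left-out libraries.

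The members and gene lists were chosen with earlier results of these data known. Genes described with values were those called in any contrast, the 3 highest of each class by mean CPM and the lowest p of each class per contrast. Col5a2, Col4a1, Col4a5, Col16a1 and the collagens of the Young spread fall outside that rule and were named after their values had been seen. A gene of the lists that meets a rule for naming is not reported here. Levels per kilobase first used the union of all annotated exons of a gene (GENCODE M21). After those levels had been seen, the length was changed to the longest APPRIS principal transcript, because the union was over 1.5 times longer for 10 of the 44 genes, and the first version is kept as an alternative. Fold changes do not depend on it.

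Deviations from the group mean across genes, in Old OSK and Old control libraries of the same number, correlated at r = 0.103, 0.421 and 0.339, all above 0.1. The main fit has no block, and blocked values are given where they change a call. Old with Young gave r from -0.193 to 0.144, and Old control with Old gave 0.197, -0.189 and 0.359, so not every pair exceeded 0.1. The labels give these numbers no further meaning, and no r was computed for libraries of unlike number, so these values cannot show that a number marks a pair. Old control replicates 2 and 3 carry the letter M, with at least 4040 counts on Y-linked genes. Old OSK replicates 2 and 3 do not, and libraries without it had at most 93. No replicate pair agreed within sampling noise (chi-square per gene at least 20.2). Counts come from PCR-amplified reads without molecular identifiers.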

Additional observations from a re-analysis of the deposited data

Results flagged for a closer look

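Col8a1 in Old OSK was 718, 727 and 736 CPM in 3 libraries and 827 in replicate 3. The gap between 827 and the next value was 0.834 of the group's range, just above the limit for 4 samples. This was the 1 flag among 48 group values of 16 genes, and chance flags about 1 in 20 groups.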

How the results depend on the processing

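Limits: with 3 to 7 libraries a group, most age calls lie close to the threshold. For collagens higher in Old against Young (3), the count was 0 with the letter M as a covariate, 0 in the libraries without M, 1 in the 2 groups alone, 0 in the replicate block and 0 in the same libraries unblocked. For collagens lower (6), it was 2 with median-ratio size factors, 2 without a filter, 2 with a filter at a mean of 50 counts, 10 in DESeq2, 2 with the letter M as a covariate, 2 in the libraries without M, 0 in the replicate block and 2 in the same libraries unblocked. The block called 0 rows of the whole table. Leaving out 1 library gave 0 to 4 higher and 1 to 5 lower. In Old OSK against Old control, the higher count (1) was 3 in DESeq2, 0 in the 2 groups alone, 2 in the replicate block and 2 in the same libraries unblocked; the lower count (0) was 3 in DESeq2 and 0 to 5 with 1 library left out, 5 without Old control replicate 2 and 1 without Old OSK replicate 4. Apart from the block, the shares of all rows called in these fits are not given, so a change in count cannot be set against the whole table. The causes were not tested.

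Some uncalled log2 fold changes changed sign; ranges are over the fits that leave out 1 library. Col11a2 in Old against Young ran from -0.458 to 0.082 (0.032 without Young replicate 2 and 0.018 without Old replicate 4). In Old OSK against Old control, Col1a2 was -0.067 in the replicate block and -0.066 in the same libraries unblocked, and ran from -0.105 to 0.101 (-0.091 without Old control replicate 3, -0.025 without Old OSK replicate 3). The ranges were -0.689 to 0.516 for Col19a1, -0.253 to 0.196 for Col18a1, -0.137 to 0.091 for Col4a2 (0.037 without Old OSK replicate 1), -0.404 to 0.248 for Col6a2 and -0.0313 to 0.484 for Col1a1 (-0.0312 without Old control replicate 3).

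With the exon union as length, an alternative kept after the change described above, 10 of 44 Young levels moved by more than the spread between libraries. Col1a2 was 5.84 CPM per kilobase (rank 10) in place of 13.6 (rank 7), and Col8a1 and Col9a3 changed places. Col11a2 in Old OSK was at rank 8 in place of 7. The same 4 genes held the first ranks in all 4 groups.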

Other observations

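Among the 22 collagens with a Young mean of at least 10 CPM, the spread between the 7 Young libraries differed widely. The coefficient of variation was 9.68% for Col18a1, 10.7% for Col4a3 and 10.9% for Col4a4, and reached 102%. 13 of the 22 were lowest in Young replicate 7 and 9 were highest in Young replicate 2. The 8 genes with both were Col11a1, Col23a1, Col2a1, Col4a5, Col4a6, Col5a1, Col9a1 and Col9a2. Col23a1, a membrane-spanning collagen, was 177 CPM in Young replicate 2 and 6.36 in Young replicate 7. The share of all rows that were lowest or highest in these libraries was not counted. The sum of the stromal fibroblast markers was also lowest in Young replicate 7 (218 CPM) and highest in Young replicate 2 (919 CPM). Within that list Fbln1 alone ran from 26.4 to 635 CPM in Young. In Young replicate 2 Ogn was at its highest Young value (182 CPM). Dcn (77.3 CPM) and Lum (5.20 CPM) lay below their Young medians of 80.1 and 5.67 there, so the markers did not all peak in that library. Its part in these collagen values was not tested. In Young replicate 1, Col4a1 stood apart at 78.4 CPM and Col6a3 at 19.4.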
